A study of Mus musculus with 6 samples.

Results

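The glycolysis genes described here are 10 genes that carry glucose from uptake to lactate: the glucose transporter Slc2a1 and the enzyme genes Hk2, Pfkp, Aldoa, Gapdh, Pgk1, Pgam1, Eno1, Pkm and Ldha. They were chosen by symbol as steps of the pathway, and each matched 1 of the 41388 Ensembl genes counted in the 6 RNA-seq samples. Of the 10 genes, 7 passed the filter on low counts, more than 1 CPM (counts scaled to the depth of a sample) in 3 samples or more, which 12192 genes passed in all. The other 3, Gapdh, Pgk1 and Pgam1, had between 16 and 56 counts over all samples and could not be compared.

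The samples were cells sorted from mammary tumors of female FVB/N-TgN(MMTVPyVT)634Mul/J mice, 12 weeks of age, which express the polyoma middle T oncogene under the mouse mammary tumor virus promoter. Tumor-initiating cells (TICs), CD24+CD90+ cells depleted of the leukocyte marker CD45, made up 3 samples. The other 3 samples held non-CD24+CD90+ tumor cells, that is CD45- cells outside this gate, called non-TICs here. The series' own description names them as lacking both markers. Both groups carried the same transgene, and no treatment is named for either. RNA was pooled from 4 sorts per sample, so that no single animal stands behind a value, and p-values measure the spread between pools. The comparison asks how the transcripts of the glycolytic pathway differ between TICs and non-TICs. In the paper both populations formed tumors after transplantation, TICs at a higher frequency per cell.

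In glycolysis, glucose enters the cell through a transporter of the GLUT family, is phosphorylated by a hexokinase, committed by phosphofructokinase, split by aldolase and converted stepwise to pyruvate with a net gain of ATP. Lactate dehydrogenase then reduces pyruvate to lactate and regenerates NAD+. Most steps are served by several isozymes from different genes, and many tumors use glycolysis heavily even where oxygen is present, with hypoxia-inducible factors (HIF) and MYC among its known activators.

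Depth lay between 6781239 and 8450038 counts in non-TICs and between 8114933 and 9100552 in TICs, so that 3 counts corresponded to 0.33 to 0.44 CPM. TIC replicate 3 stood apart: 1085 of the 12192 expressed genes had no count in it, against 325 to 732 in the other 5 samples, and its endothelial markers and Fabp4 were the highest, as given next. Among cell type markers, the summed level of 9 luminal epithelial genes was 5738 to 6053 CPM in non-TICs and 3784 to 4378 CPM in TICs, and no single one of the 9 passed the test. The summed level of 8 fibroblast markers was 2928 to 3281 CPM and 7696 to 10959 CPM, with 6 of the 8 higher in TICs past the threshold. Pericyte markers summed to 445 to 521 CPM and 868 to 1494 CPM, endothelial markers to 116 to 132 CPM and to 150, 226 and 565 CPM, and basal epithelial markers to 568 to 1182 CPM and 580 to 692 CPM. The leukocyte list summed to 8.01 to 29.4 CPM and 32.1 to 85.5 CPM, and its member Lyz2 was higher in TICs past the threshold, while Adgre1 and Cd3e were at 0 counts in every sample. Erythroid markers reached at most 166 CPM. Of 4 adipocyte markers, Adipoq, Plin1 and Lep were at 0 counts and Fabp4 was higher in TICs past the threshold, at 137, 91.3 and 56.5 CPM in non-TICs and 192, 494 and 1225 CPM in TICs.

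The genes differed widely in how much of their coding sequence was their own. Reads that mapped to more than 1 place had been removed by the authors, and several glycolytic genes have many processed pseudogenes. Every 50-base window of each coding sequence was therefore searched for in the transcripts of all other annotated genes. The stretches that follow show the coding strand for 4 genes that span the range, with bases that lie in such a shared window in capitals. The first 100 coding bases of Slc2a1 held none, positions 58 to 157 of Ldha held 70, and the first 100 of Pgk1, like the 50-base Gapdh window at positions 493 to 542, were shared throughout, the latter with 84 other genes.
Slc2a1: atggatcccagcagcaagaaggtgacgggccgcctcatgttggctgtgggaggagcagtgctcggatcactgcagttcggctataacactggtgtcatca
Ldha: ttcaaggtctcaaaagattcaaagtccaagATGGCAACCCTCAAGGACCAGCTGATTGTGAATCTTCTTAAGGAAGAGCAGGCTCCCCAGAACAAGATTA
Pgk1: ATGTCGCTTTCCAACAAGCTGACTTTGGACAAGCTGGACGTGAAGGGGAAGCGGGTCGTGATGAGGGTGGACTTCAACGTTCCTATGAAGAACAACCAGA
Gapdh: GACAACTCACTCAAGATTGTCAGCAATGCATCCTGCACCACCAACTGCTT

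Slc2a1, Hk2 and Pfkp had no shared 50-base window. The share was 16.8% in Aldoa, 28.4% in Ldha, 46.9% in Pkm and 83.3% in Eno1. It reached 94.2% in Gapdh and 100% in Pgk1 and Pgam1. With windows of 100 bases the shares of Aldoa, Ldha and Pkm came to 0%, 2.24% and 10.6%, whereas those of Eno1, Gapdh, Pgk1 and Pgam1 stayed at 69.3%, 93.9%, 100% and 100%. The 4 genes with the largest shares were also the 4 with the fewest counts, and the read length is not given in the sources used here. The part that shared sequence had in the low counts was not tested.

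**Figure D1:**
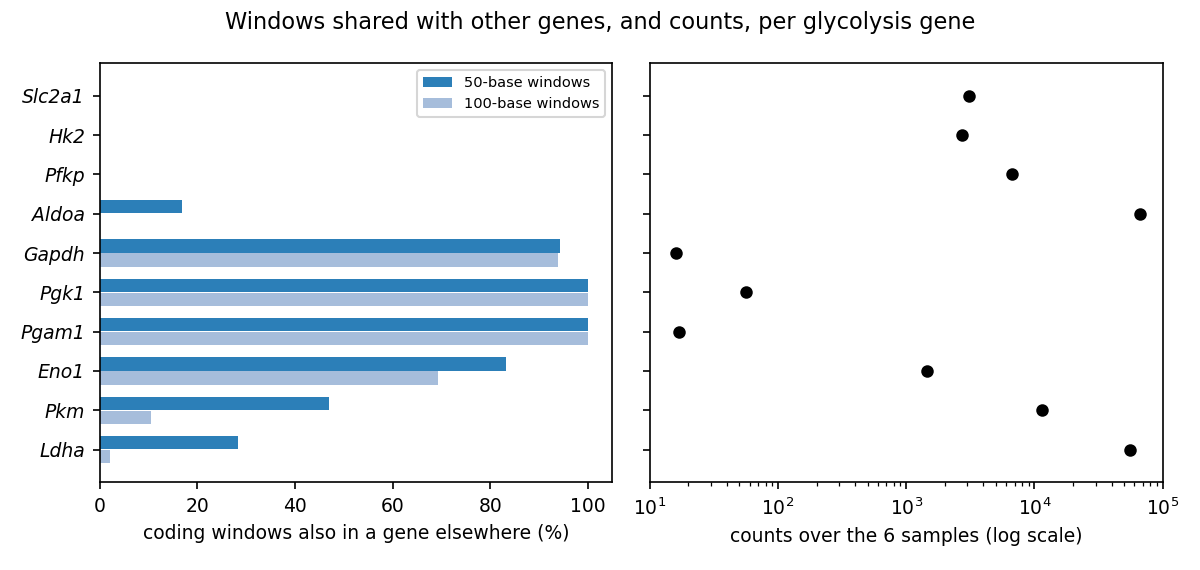
Left, share in % of the 50-base (dark) and 100-base (light) windows of each coding sequence that also occur in a gene elsewhere. Right, counts of the gene summed over the 6 samples on a log axis. Gapdh, Pgk1 and Pgam1, with shares of 94.2% to 100%, had 16 to 56 counts, while Aldoa and Ldha had 66702 and 55488.

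Gapdh, glyceraldehyde-3-phosphate dehydrogenase (GRCm38, chromosome 6, 125161715 to 125166467, minus strand), had 16 counts in non-TICs replicate 2 and 0 in the other 5 samples. Its windows recurred in 221 other genes, 212 of them annotated as pseudogenes. Of these genes, 199 were in the count files, with 1219 counts in all samples together. Pgk1, phosphoglycerate kinase (chromosome X, 106187100 to 106203699, plus strand), had 0, 6 and 0 counts in non-TICs and 6, 0 and 44 in TICs. Pgam1, phosphoglycerate mutase (chromosome 19, 41911923 to 41918660, plus strand), had 0, 11 and 0 counts and 3, 0 and 3 counts. Each of the 3 was thus without a count in at least 3 samples, and their levels and their difference between the groups are not readable from these counts. No fold change is given for them.

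Among the 7 measured genes, none passed the test between TICs and non-TICs (exactTest of edgeR, Benjamini-Hochberg adjusted p below 0.1 over 12192 genes). Of all genes tested, 1.36% passed as higher in TICs and 0.189% as lower, and 0 of 7 does not stand apart from these shares. By DESeq2 1 of the 7, Aldoa, passed as lower, beside 306 of all 12192 genes in either direction. By the quasi-likelihood test of edgeR 0 did, beside 50 of all genes. In both edgeR tests 1 of the 7 had an unadjusted p below 0.05, also Aldoa, beside 7.85% of all genes in exactTest. The log2 fold change of TICs over non-TICs was below 0 for 5 of the 7 genes, with a median of -0.31, beside 6131 of 12192 below 0 and a median of -0.01 over all genes tested. Without TIC replicate 3 the median was -0.06. In Aldoa and Slc2a1 every TIC sample lay below every sample of the other group, and none of the 7 showed the opposite order. Among all genes tested, 7.55% were separated in this way with TICs lower and 7.69% with TICs higher.

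**Figure D2:**
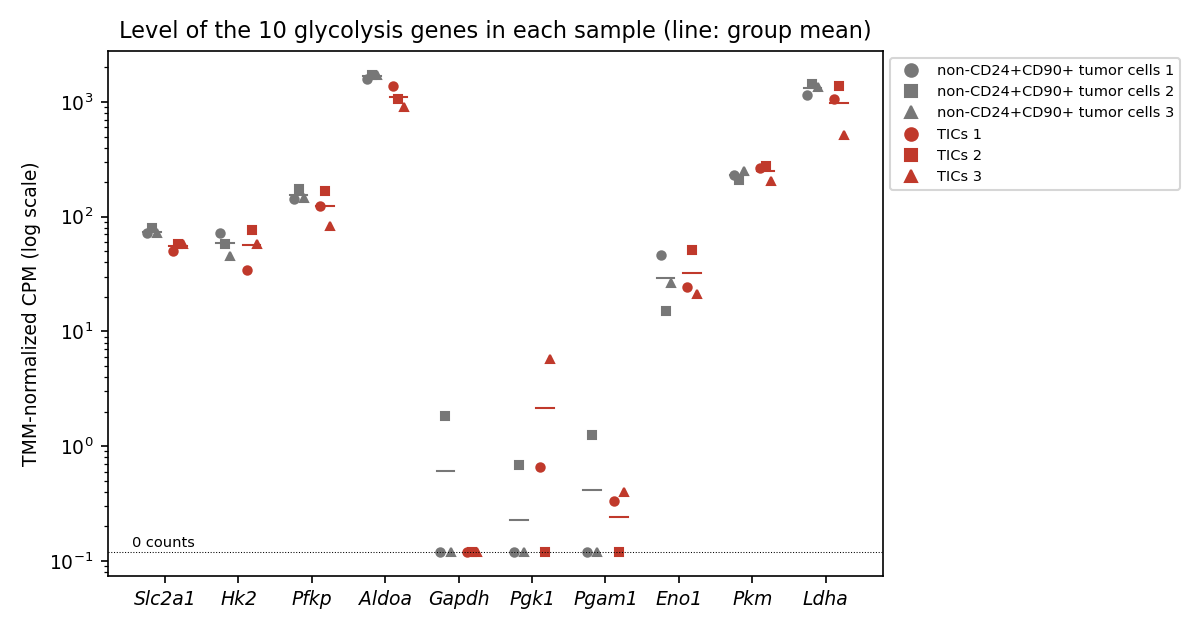
TMM-normalized CPM (log axis) of the 10 glycolysis genes in each of the 3 samples of non-TICs (grey) and the 3 of TICs (red), in order of the pathway, with a line at each group mean and samples without a count on the dotted line. On this scale the groups are apart in Slc2a1 and Aldoa and overlap in the other 5 measured genes, and TIC replicate 3 (red triangle) is the lowest sample for Pfkp, Aldoa, Pkm and Ldha.

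At the entry of glucose, Slc2a1 (chromosome 4, 119108711 to 119137983, plus strand), which encodes GLUT1, the transporter of basal glucose uptake, was at 71.5, 79.3 and 71.5 CPM in non-TICs and at 50.3, 57.5 and 57.4 CPM in TICs. The 2 groups did not overlap and varied little within themselves, 74.1 ± 4.50 CPM against 55.1 ± 4.10 CPM (mean ± SD, n = 3 samples each, as throughout). The log2 fold change was -0.43 ± 0.38 (SE), with a 95% interval of -1.18 to 0.32 and an adjusted p of 0.99. The standard error comes from the tagwise dispersion, which edgeR draws toward that of all genes, and is wide beside the spread of these 6 values.

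Hk2 (chromosome 6, 82725025 to 82774454, minus strand), the inducible hexokinase of muscle, fat and many tumors, was at 71.9, 57.9 and 45.9 CPM in non-TICs and at 34.1, 76.4 and 58.1 CPM in TICs. TIC samples were both the lowest and the highest of the 6. The log2 fold change was -0.06 ± 0.45, with a 95% interval of -0.94 to 0.82, and turned positive when replicate 1 of either group was left out.

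Pfkp (chromosome 13, 6579768 to 6648777, minus strand), the platelet type of phosphofructokinase, the committed step, was at 142, 176 and 146 CPM in non-TICs and at 124, 168 and 82.6 CPM in TICs. The groups overlapped, and TIC replicate 3 was the lowest. Its log2 fold change of -0.31 ± 0.34 (95% interval -0.97 to 0.36) became -0.06 without that sample.

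Aldoa (chromosome 7, 126795234 to 126800751, minus strand), the aldolase of muscle and most other tissues, had the highest level of the measured members and the smallest p. It was at 1594, 1733 and 1729 CPM in non-TICs and at 1381, 1053 and 899 CPM in TICs. All 3 TIC samples lay below all 3 others, 1111 ± 246 CPM against 1685 ± 79.0 CPM. The log2 fold change was -0.60 ± 0.28, with a 95% interval of -1.14 to -0.06, an unadjusted p of 0.032 in exactTest of edgeR and an adjusted p of 0.51, which ranked it 746 among the 12192 genes. DESeq2 gave -0.58 with an adjusted p of 0.074, past the threshold. Over the other alternatives fitted with edgeR the adjusted p ranged from 0.208 to 0.965.

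The luminal markers moved with Aldoa. Their summed level in TICs was 0.683 times that in non-TICs, and Aldoa was at 0.660 times. In bulk samples, fewer luminal cells and less RNA per cell cannot be told apart. As a percentage of the luminal sum of the same sample, a scaling chosen after seeing the data, Aldoa was at 26.7, 28.6 and 30.1 in non-TICs and at 31.6, 26.5 and 23.8 in TICs, and Slc2a1 was at 1.20, 1.31 and 1.25 and at 1.15, 1.45 and 1.52. On this scale both genes overlapped between the groups, and 1 of the 7, Pkm, did not, at 3.90, 3.48 and 4.35 against 6.06, 6.90 and 5.45. Division by a sum that was lower in TICs raises every gene there, also one that is level in CPM. The share of all genes without overlap on this scale was not computed, so the Pkm values are a description only. The part of cell composition in these differences was not tested.

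Eno1 (chromosome 4, 150236721 to 150248879, plus strand), the widely expressed enolase, was at 46.6, 15.2 and 26.3 CPM in non-TICs and at 24.5, 51.6 and 21.4 CPM in TICs. Its samples varied more than 3-fold without order between the groups, and the log2 fold change was 0.15 ± 0.64 with a 95% interval of -1.10 to 1.40. It turned negative when replicate 2 of either group was left out. Because most of its windows occur elsewhere, among others in its near-identical copy Eno1b, its level is uncertain. Eno1b itself, with 93.5% of its 50-base windows shared, was at 59.7, 50.6 and 57.5 CPM and at 48.5, 50.6 and 38.9 CPM.

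Pkm (chromosome 9, 59656368 to 59679375, plus strand) encodes the pyruvate kinases M1 and M2, splice forms that counts per gene do not separate. It was at 233, 211 and 250 CPM in non-TICs and at 265, 274 and 206 CPM in TICs. The groups overlapped, with a log2 fold change of 0.10 ± 0.29 (95% interval -0.46 to 0.67). Pkm had the smallest SE of the 6 genes other than Aldoa, and its interval reached a 1.59-fold higher and a 0.726-fold level in TICs.

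Ldha (chromosome 7, 46841475 to 46855627, plus strand), which encodes the lactate dehydrogenase subunit that favors lactate formation, was at 1153, 1427 and 1362 CPM in non-TICs and at 1057, 1391 and 520 CPM in TICs. Replicates 1 and 2 of TICs lay close to the other group, and TIC replicate 3 was far below all other samples. Its log2 fold change of -0.41 ± 0.34 (95% interval -1.08 to 0.26, adjusted p of 0.98) became -0.08 when this sample was left out.

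**Figure D3:**
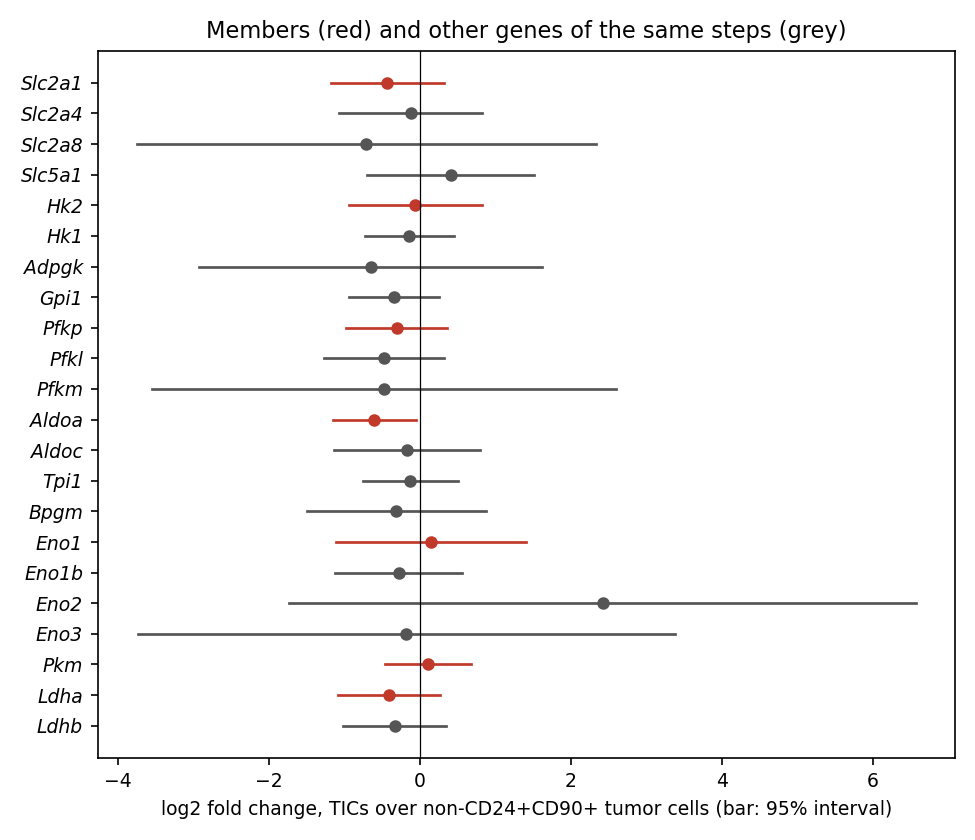
Log2 fold change of TICs over non-TICs with its 95% interval, from the uptake of glucose at the top to lactate at the bottom, for the 7 measured members (red) and the 15 other measured genes of the same steps (grey). Aldoa, at -0.60, is the one gene whose interval (-1.14 to -0.06) leaves out 0.

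Apart from the summed level below, levels were compared between genes only per kilobase, for the transcript with the longest coding sequence. On this scale the order over all 6 samples was Aldoa with a mean of 903 CPM per kilobase, Ldha with 635, Pkm with 98.7, Pfkp with 33.7, Slc2a1 with 19.8, Eno1 with 15.3 and Hk2 with 10.4. Pkm was separated from its neighbors in every sample, with 84.8 to 113 CPM per kilobase against 286 to 786 for Ldha and 19.9 to 42.4 for Pfkp. Aldoa, at 581 to 1119, overlapped with Ldha. The range of Slc2a1, 15.4 to 24.3, overlapped with those of Pfkp and Eno1, and the range of Eno1, 7.50 to 25.5, with that of Hk2, 6.18 to 13.9. As reads that mapped to several places had been removed, the levels of Eno1, Pkm and, to a lesser degree, Ldha and Aldoa can be understated in this order.

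Summed over the 10 genes, the level was 3313, 3703 and 3630 CPM in non-TICs and 2938, 3073 and 1851 CPM in TICs. All TIC samples lay below all others, with 2620 ± 670 CPM against 3549 ± 207 CPM, a ratio of 0.738. Aldoa and Ldha made up 82.7% of the sum in CPM, not scaled to length, so that it describes mainly these 2 genes. Gapdh, Pgk1 and Pgam1, whose levels are not readable here, added at most 1.82, 5.81 and 1.25 CPM to a sample. The share of 82.7% thus holds for what could be counted. Without TIC replicate 3 the ratio was 0.858, and over all samples left out in turn it ranged from 0.676 to 0.858.

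The low sum of TIC replicate 3 was not shared by all of the genes. Ldha and Pfkp ranked the 6 samples in the same order, from non-TICs replicate 2 and TIC replicate 2 at the top to TIC replicate 3 at the bottom. Hk2 and Eno1 were lowest elsewhere, in TIC replicate 1 and in non-TICs replicate 2. Among 3738 genes outside the lists with a mean above 50 CPM, those whose log2 level followed the summed level of the 10 genes most closely were Zfand3, Tpt1, Tollip, Gm8430 and Wbp2, with Pearson r of 0.987 to 0.995 over the 6 samples, which is a description of these libraries. All 5 were at their lowest in TIC replicate 3. Zfand3, for example, was at 108, 129 and 127 CPM in non-TICs and at 102, 108 and 59.2 CPM in TICs.

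The promoters of Ldha and Pfkp, the pair with the same order of samples, are shown as the 250 bases before the annotated start (RefSeq, GRCm38.p6, each on the strand of its gene). They were searched on both strands for ACGTG. This is a form of RCGTG (R is A or G), the core that HIF binds in hypoxia response elements. Matches are in capitals. The form GCGTG, which the printed Pfkp stretch holds, was neither searched for nor marked. The palindrome CACGTG, a binding site of MYC and related factors, holds ACGTG on both strands and counts as 2 overlapping matches.
Ldha, chr7:46845554-46845803, plus strand: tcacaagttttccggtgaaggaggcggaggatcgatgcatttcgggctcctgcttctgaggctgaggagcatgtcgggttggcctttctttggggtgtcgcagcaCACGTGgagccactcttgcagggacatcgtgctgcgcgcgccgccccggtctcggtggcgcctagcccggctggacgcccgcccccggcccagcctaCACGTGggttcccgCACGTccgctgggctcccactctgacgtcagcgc
Pfkp, chr13:6648772-6649021, minus strand: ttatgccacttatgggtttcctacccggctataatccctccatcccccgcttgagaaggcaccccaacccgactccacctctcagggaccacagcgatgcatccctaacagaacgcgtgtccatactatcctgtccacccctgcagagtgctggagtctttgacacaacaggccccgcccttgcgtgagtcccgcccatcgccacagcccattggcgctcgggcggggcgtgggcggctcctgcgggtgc
The first of 2 annotated Ldha starts, printed above, lies inside the gene model of GENCODE and had 5 matches to ACGTG. The second Ldha start had 0 matches, as had the Pfkp start. Of the 16 promoters annotated for the 10 genes, 8 held ACGTG, at 7 of the 10 genes. Those of Eno1, Gapdh and Pfkp held no ACGTG. Among the 8 are 2 overlapping Aldoa promoters that hold the same match. Of all 32851 promoters of the same length, 16.6% held ACGTG, a share per promoter and not per gene. A match is a run of letters and not evidence of binding.

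The relative use of isozymes does not depend on scaling between libraries. Each member's share of its family was computed per kilobase in each sample and compared by a two-sided exact permutation test, which cannot give a p below 0.1 with 3 samples against 3. Slc2a1 made up 48.5%, 52.7% and 55.6% of 6 glucose transporter genes in non-TICs and 49.3%, 46.4% and 43.8% in TICs, a difference of -5.74 percentage points (exact p = 0.2). With counts in place of counts per kilobase the difference was -7.02 percentage points. Its unadjusted p in the exact permutation test was then 0.1, the smallest possible here. Among the transporters, the insulin-responsive Slc2a4 was at 45.3 ± 11.3 CPM in non-TICs and 41.8 ± 9.02 CPM in TICs. Hk2 was the minor hexokinase, with 15.8% ± 4.71 in non-TICs and 16.7% ± 7.18 in TICs (exact p = 0.8). Its constitutive partner Hk1 was at 222 ± 34.2 CPM and 202 ± 39.9 CPM.

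Pfkp made up 56.4% ± 11.8 of the phosphofructokinases in non-TICs and 57.4% ± 8.38 in TICs (exact p = 0.9), with the liver type Pfkl as the main partner at 108 ± 53.1 CPM and 77.6 ± 20.5 CPM. Aldoa held 96.8% ± 0.515 and 96.0% ± 2.24 of the aldolases (exact p = 0.6). Aldoc, its brain-type partner, was at 98.4 ± 12.3 CPM and 87.5 ± 56.4 CPM. Eno1 held 27.6% ± 7.76 and 32.1% ± 13.4 of the enolases (exact p = 0.6), a share as uncertain as its counts. Ldha held 86.6% ± 3.97 and 84.8% ± 4.01 against Ldhb and Ldhc (exact p = 0.6). Pkm had no counted isozyme, since the liver and red cell gene Pklr had no count in any sample. No share passed a threshold of 0.1 after adjustment over the 6 shares (adjusted p = 0.9 for each, exact permutation test).

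**Figure D4:**
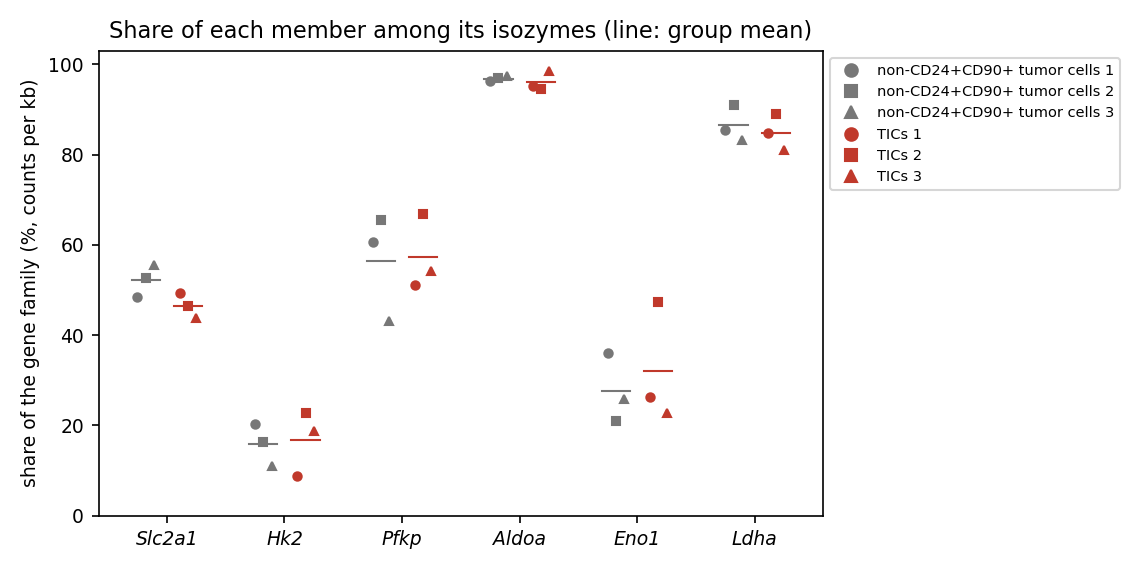
Share in % of each member in the summed counts per kilobase of its isozymes, per sample, with group means as lines (grey, non-TICs and red, TICs). Aldoa (94.4% to 98.6%) and Ldha (80.9% to 91.0%) prevail in every sample, Hk2 is a minor share in every sample, and the groups overlap in all 6 families.

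Of 27 other genes of the same steps, 15 passed the filter and none passed the test. Their log2 fold changes were below 0 in 13 of 15, with a median of -0.28. The genes Slc2a2, Hk3, Hkdc1, Gapdhs, Pgk2, Pgam2, Pklr and Ldhc had 0 counts in all samples, and most of them are known from liver, muscle or germ cells. Gpi1, glucose-6-phosphate isomerase, was at 231, 198 and 237 CPM in non-TICs and at 218, 170 and 136 CPM in TICs (log2 fold change -0.34 ± 0.30). Tpi1, triosephosphate isomerase, was at 133, 105 and 130 CPM and at 106, 95.9 and 135 CPM (-0.13 ± 0.32). The sodium-coupled transporter Slc5a1 and the neuronal enolase Eno2 had log2 fold changes of 0.41 ± 0.57 and 2.42 ± 2.12, the latter with 0 counts in 3 of the 6 samples.

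In the lists around the pathway, 103 genes in all with the 27 above, 81 were tested and 1 passed. Both directions together, 189 of the 12192 genes passed. At an unadjusted p below 0.05 there were 9 of the 81, beside 957 of the 12192 (7.85%), and of the 9 3 were HIF factors or targets, 3 branch genes, 2 genes of the pentose phosphate pathway, 1 of the pyruvate list and 0 of the other lists. DESeq2 called 1 of the 81 and the quasi-likelihood test 0, beside 306 and 50 of all genes tested. The called gene was Gpd1, cytosolic glycerol-3-phosphate dehydrogenase, which draws dihydroxyacetone phosphate from glycolysis toward glycerolipids. It was at 104, 136 and 95.1 CPM in non-TICs and at 27.6, 61.0 and 45.3 CPM in TICs, without overlap. With a log2 fold change of -1.32 ± 0.40 its adjusted p in exactTest of edgeR was 0.085. The call was lost by the quasi-likelihood test, with RLE size factors, without the filter, with trended dispersions and when any sample other than TIC replicate 2 was left out. Gpd1 is abundant in fat cells, of whose 4 markers Adipoq, Plin1 and Lep had no counts here and Fabp4 was higher in TICs. The part of fat cells in the Gpd1 difference was not tested.

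The other genes of the branches did not pass. Pygb, a glycogen phosphorylase, was at 101 ± 18.9 CPM in non-TICs and 46.6 ± 17.9 CPM in TICs without overlap (log2 fold change -1.11 ± 0.40, adjusted p of 0.24 in edgeR). Gfpt2, which opens the hexosamine pathway, was at 3.79, 6.92 and 0 CPM and at 25.6, 40.1 and 13.5 CPM (2.88 ± 1.16, adjusted p of 0.47). Pgm1, a phosphoglucomutase gene, was at 48.5 ± 14.1 CPM and 69.7 ± 56.8 CPM. In the pentose phosphate pathway, with 7 genes tested, the transaldolase Taldo1 was at 658, 588 and 582 CPM and at 474, 358 and 390 CPM, again without overlap (-0.58 ± 0.28, adjusted p of 0.56). Pgd, 6-phosphogluconate dehydrogenase, was at 366 ± 88.4 CPM and 199 ± 132 CPM, whereas G6pdx and Rpia had log2 fold changes of 0.48 ± 0.86 and 0.15 ± 0.64.

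On the fate of pyruvate and lactate, 15 genes were tested, of which 8 had a log2 fold change above 0 and 7 below. Mpc2, a subunit of the mitochondrial pyruvate carrier, was at 111, 145 and 100 CPM in non-TICs and at 239, 156 and 167 CPM in TICs, all higher (0.66 ± 0.32, adjusted p of 0.59). Of the pyruvate dehydrogenase complex, the binding protein gene Pdhx was at 25.3 ± 6.41 CPM and 47.1 ± 11.5 CPM, and the catalytic subunit gene Pdha1 at 268 ± 34.3 CPM and 178 ± 60.1 CPM, so that the 2 lay in opposite directions without overlap between the groups. Neither passed. The phosphatase gene Pdp2, which activates the complex, had 51, 84 and 36 counts in non-TICs and 0, 0 and 9 in TICs (adjusted p of 0.68). The lactate transporters Slc16a1, Slc16a3 and Slc16a7, chosen after their values were seen, had log2 fold changes of 0.57 ± 0.64, 0.80 ± 1.40 and -2.05 ± 1.80.

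Of 18 genes of HIF factors and their targets outside glycolysis, none passed, 10 had a log2 fold change above 0 and 8 below, and the median was 0.04. Epas1, which encodes HIF-2α and is abundant in endothelium, was at 26.1, 35.1 and 9.44 CPM in non-TICs and at 33.2, 57.4 and 98.2 CPM in TICs (1.42 ± 0.59, adjusted p of 0.41 in edgeR). Adm, adrenomedullin, was at 43.8, 56.4 and 23.3 CPM and at 45.3, 104 and 105 CPM (1.04 ± 0.48). Egln3, a HIF prolyl hydroxylase and itself a HIF target, was at 144, 91.7 and 169 CPM and at 91.4, 67.3 and 73.8 CPM, all lower (-0.80 ± 0.35, adjusted p of 0.45). Mxi1, a MYC antagonist, was at 48.3 ± 9.17 CPM and 28.4 ± 9.24 CPM. The members of this list thus had values on both sides, and the endothelial markers, 2.53 times as high in TICs and 1.52 times without TIC replicate 3, moved with Epas1. Their part in it was not tested.

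Of the regulators of phosphofructokinase, 3 genes were tested. Pfkfb3 was at 27.6, 14.2 and 11.3 CPM in non-TICs and at 3.19, 1.40 and 15.8 CPM in TICs (-1.38 ± 1.11). Tigar and Pfkfb2 were at most at 9.50 and 19.5 CPM and lay in the other direction, with log2 fold changes of 1.60 ± 2.08 and 0.95 ± 1.48. Of 5 tested genes of gluconeogenesis, Pcx, pyruvate carboxylase, was at 29.7 ± 6.65 CPM and 12.3 ± 16.8 CPM, Pck2 at 109 ± 11.1 CPM and 81.4 ± 15.9 CPM, and G6pc3 at 23.3 ± 5.72 CPM and 26.4 ± 22.9 CPM. None of these passed.

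**Figure D5:**
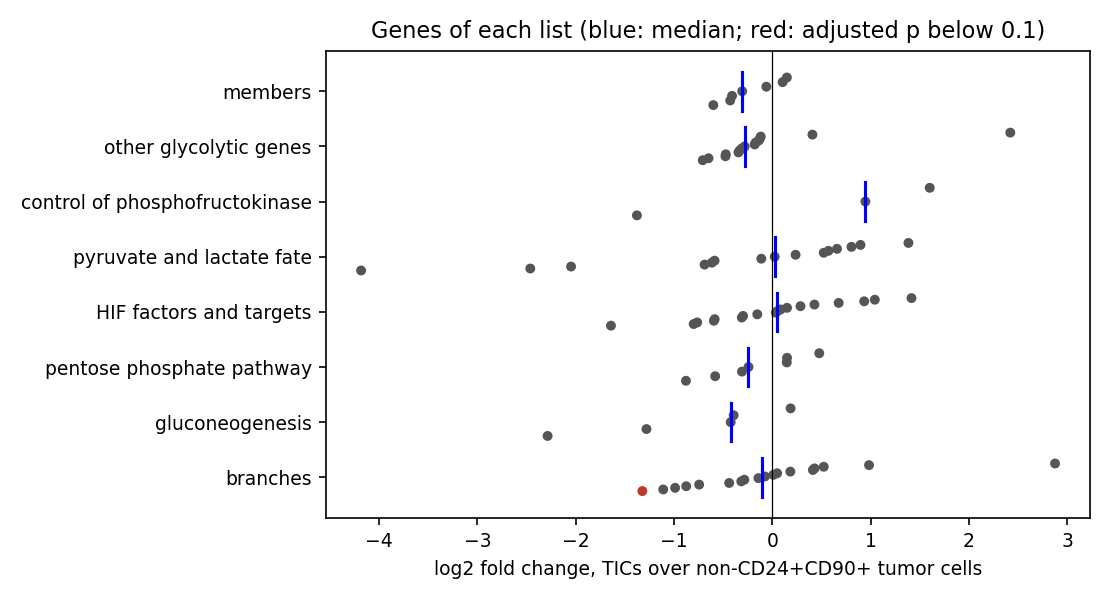
Log2 fold change of TICs over non-TICs for each tested gene of the member set and of the 7 lists around it, 1 point per gene, with the median of each list as a blue line. Gpd1, at -1.32 among the branches, is the single red point, and the medians of the members (-0.31) and of the other glycolytic genes (-0.28) lie below 0.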

How the data were processed

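The 6 RNA-seq libraries, 3 per group, were analysed. The authors trimmed the reads with Trimmomatic (version 0.32), aligned them to GRCm38 with STAR (version 2.4.0), removed reads that were not uniquely mapped with SAMtools (version 1.1) and counted the rest per Ensembl gene with HTSeq. They deposited raw counts without normalization. The annotation release, strand setting and read length are not given in the sources used here. Total counts per sample were 6781239 to 9100552, and 3 counts corresponded to 0.33 to 0.44 CPM. Groups were taken from the sample descriptions, and replicates were numbered in the order of the samples.

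A gene was kept when 3 samples or more exceeded 1 CPM. TMM normalization, common and tagwise dispersions and exactTest of edgeR (version 4.0.16, R version 4.3.3) were run over all 12192 genes, with Benjamini-Hochberg adjustment and a threshold of 0.1. The study's methods name exactTest, this adjustment and a CPM filter of unstated value, and the normalization and dispersions were chosen here. The SE was taken from the negative binomial fit, and the 95% interval is 1.96 SE to each side. The script was tested on simulated counts. The alternatives were DESeq2 (version 1.42.0), the quasi-likelihood test of edgeR, other size factors, filters, dispersions and thresholds, and each sample left out in turn. Symbols, coordinates and coding sequences came from GENCODE release M21 on GRCm38, and 40254 of 41388 genes had a symbol. All 10 members matched. The members and lists were chosen with earlier results of these data known. Beside the members, the genes named by rule are their measured isozyme partners and called genes of the lists. The rule adds the 2 genes per list and direction with the smallest p, and the 5 genes most alike to the summed level. Tpi1, Slc16a1, Slc16a3, Slc16a7, genes without a count and cell type markers are named outside this rule. No count columns were left out.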

Additional observations from a re-analysis of the deposited data

How the results depend on the processing

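No member passed the test in any alternative other than DESeq2, which called 1 (Aldoa), and the count was 0 whichever sample was left out. Of the list genes, 1 passed in the reported fit, 0 by the quasi-likelihood test, with RLE size factors, without the filter and at an adjusted p below 0.05, and 0 to 2 over the samples left out (Pgd and Pygb without TIC replicate 1, Pcx without TIC replicate 3, Gpd1 without TIC replicate 2). With trended dispersions Pgd was called in place of Gpd1. Relative to the luminal markers, whose sum was lower in TICs, 1 member (Pkm, TICs higher) did not overlap between the groups, in place of 2 (TICs lower). The share of all genes without overlap was not computed on that scale. Over all genes, 189 were called in the reported fit, 50 by the quasi-likelihood test, 306 by DESeq2, 112 without the filter and 72 to 323 over the samples left out.

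With samples left out, the log2 fold change ranged from -0.77 to -0.45 in Aldoa, -0.46 to -0.35 in Slc2a1, -0.74 to -0.08 in Ldha, -0.58 to -0.06 in Pfkp, 0.03 to 0.24 in Pkm, -0.34 to 0.22 in Hk2 and -0.35 to 0.66 in Eno1, and the median of the members from -0.46 to -0.06. The direction turned in Hk2 without replicate 1 of the non-TICs (0.13) or of the TICs (0.22), and in Eno1 without replicate 2 of either (-0.16 and -0.35). The ratio of the summed level was 0.676 to 0.858. Differences in isozyme share ranged, in percentage points, from -7.62 to -4.07 for Slc2a1, -2.11 to 4.86 for Hk2, -5.66 to 5.53 for Pfkp, -2.08 to -0.01 for Aldoa, -3.17 to 9.18 for Eno1 and -3.75 to 0.50 for Ldha, so that those of Hk2, Pfkp, Eno1 and Ldha turned sign. The cause was not tested. With 1 sample fewer, the remaining samples of both groups shared the estimate of the spread.

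No paired analysis was possible because the labels number no replicates and name no shared sort or day. Counts of Gapdh, Pgk1 and Pgam1 were too few for a comparison, and the part of shared sequence in this was not tested. The common dispersion over all genes was 0.678, and the 95% intervals of the 7 measured members stand in the report.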
